A study of Caenorhabditis elegans with 21 samples.

Results

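The genes for 5 proteins of the NuRD and MEC repressor complexes, *let-418*, *chd-3*, *hda-1*, *mep-1* and *lin-40*, were taken by name from a table of poly(A) RNA-seq counts. The choice of these genes, and of the gene lists set beside them, was made with earlier results of these data known. The 5 genes are among the 45461 genes listed. All 5 passed the expression filter and were among the 17498 genes tested. The RNA came from whole animals of N2 (Bristol), the wild type (2 libraries), and of *hpl-2*(*tm1489*) (3 libraries), a strain that carries in all its cells a deletion in the gene for HPL-2, an HP1 family protein of heterochromatin. All animals were grown at 20°C with no further treatment. The sample labels call the *hpl-2*(*tm1489*) animals L4 larvae and the N2 animals young adults, whereas the study's methods give L4 for both, so genotype and labelled stage cannot be told apart. The markers gave no single order of stage, and those of the molting cycle and of oocytes ran against these labels. The summed level of 18 genes of the larval molting cycle was 7330 and 10439 CPM (counts scaled to the size of the library, TMM-normalized) in the N2 libraries. It was 449 to 857 CPM in the mutant libraries. Of 18 oocyte and eggshell genes, 17 were called higher in the mutant, against 33.9% of all genes tested. The 6 vitellogenin (yolk protein) genes ran with the labels, with sums of 6620 and 7255 CPM in N2 and 808 to 1647 CPM in the mutant. The study asked how loss of HPL-2 changes transcript abundance. The study describes the libraries of a strain as biological replicates.

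NuRD couples an ATP-driven nucleosome remodeler of the Mi-2 class to a histone deacetylase, and so compacts chromatin and removes acetyl groups at the genes it is brought to. In C. elegans, LET-418 and CHD-3 are alternative Mi-2 remodelers, HDA-1 is a class I deacetylase, and LIN-40 is a homolog of the metastasis-associated (MTA) scaffold proteins. MEC is a smaller complex of the zinc finger protein MEP-1 with LET-418 and HDA-1. It keeps germ line genes silent in somatic cells, and several of its subunits act with HPL-2 among the class B synthetic multivulva (synMuv) repressors of vulval fate.

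Transcripts of *chd-3* and *lin-40* were lower in *hpl-2*(*tm1489*) than in N2, and for both genes every mutant library lay below every N2 library, as the libraries of the strains did in one direction or the other for 72.0% of all genes tested. The levels of the 3 MEC genes, *let-418*, *hda-1* and *mep-1*, overlapped between the strains and passed no test. With edgeR's quasi-likelihood test and a Benjamini-Hochberg adjusted p under 0.1, 2 of the 5 genes were thus called lower. Of all genes tested, 61.5% were called, 27.6% lower and 33.9% higher, so that a share of 2 in 5 is not a result about these genes as a group. Their median log2 fold change was -0.25, beside a median of 0.16 over all genes tested. As the RNA is from whole animals, fewer cells that transcribe a gene and less RNA per cell cannot be told apart.

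CHD-3 is the Mi-2 remodeler that animals can live without. Its transcript was at 37.1 and 27.9 CPM in N2 replicates 1 and 2. In *hpl-2*(*tm1489*) replicates 1, 2 and 3 it was at 16.3, 8.16 and 17.4 CPM. The highest mutant library was therefore well under the lower of the N2 libraries, and 33.0% of all tested genes likewise had every mutant library below both N2 libraries. The mean fell from 32.5 ± 6.46 CPM (SD, n = 2) to 13.98 ± 5.07 (SD, n = 3). This 2.32-fold lower level (log2 fold change -1.22, standard error 0.35) had an adjusted p of 0.0154 in the edgeR fit. In 15 alternative fits the log2 fold change of *chd-3* ran from -1.57 to -0.93 and was called in all 15, with an adjusted p of 0.00125 to 0.0944.

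LIN-40, one of a pair of MTA homologs, is needed for embryonic development and vulval patterning. Its transcript was at 54.8 and 64.8 CPM in N2 and at 34.3, 21.3 and 42.2 CPM in *hpl-2*(*tm1489*) replicates 1, 2 and 3. Again no mutant library reached the N2 range. The mean of 59.8 ± 7.08 CPM (SD, n = 2) in N2 stood against 32.6 ± 10.6 (SD, n = 3) in the mutant. At a log2 fold change of -0.87 (standard error 0.32), *lin-40* was 1.83-fold lower, and edgeR gave an adjusted p of 0.0436. This call was lost without N2 replicate 2 (-0.74, adjusted p 0.212) and when a trend of the counts with gene span was removed (-0.48, adjusted p 0.137), and over 15 alternative fits the adjusted p ran from 0.00602 to 0.212. In the RefSeq table of the WBcel235 assembly, *lin-40* overlaps a protein-coding gene, *nrsn-1*, and the source does not state whether the counting used the strand. *nrsn-1* had 1538 and 1549 counts in N2 and 1763, 1505 and 1053 in the mutant, fewer than *lin-40*, and a log2 fold change of -0.90 (adjusted p 0.0214 from edgeR). The other 4 genes overlap no annotated gene in that table.

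**Figure D1:**
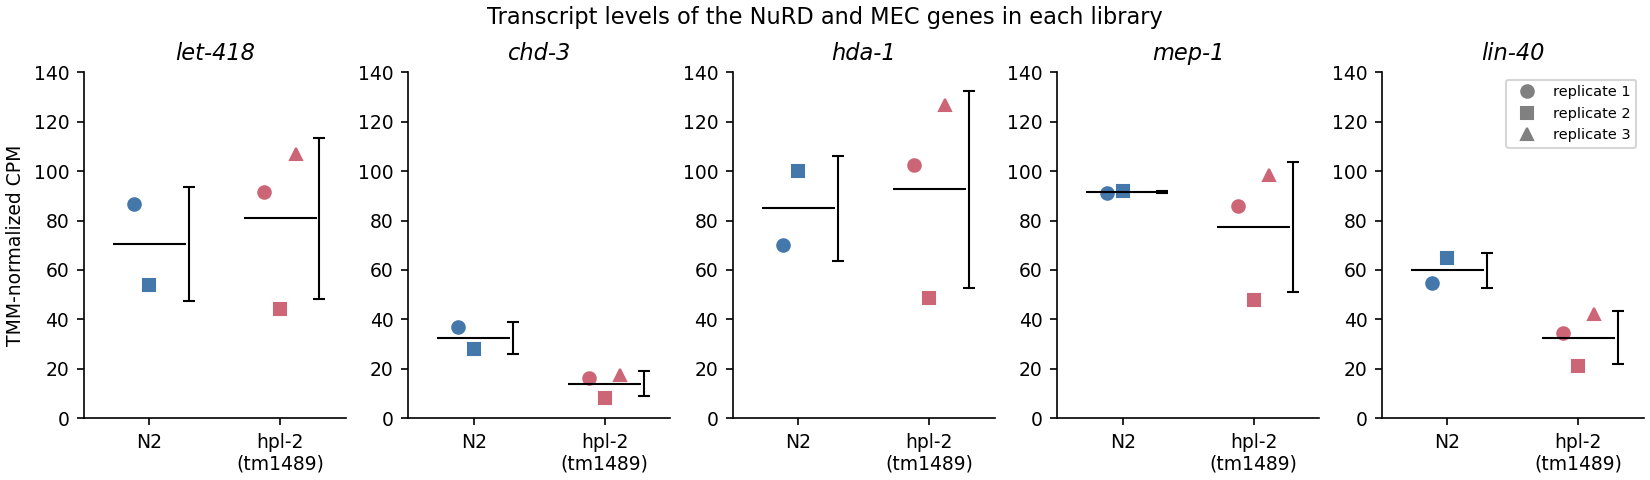
Transcript level of each gene (y axis, TMM-normalized CPM) in the 2 N2 libraries (blue) and the 3 *hpl-2*(*tm1489*) libraries (red). Black lines are group means and bars are SDs. The strains are apart for *chd-3* and *lin-40* and overlap for *let-418*, *hda-1* and *mep-1*, and mutant replicate 2 (square) is the lowest mutant library for all 5 genes.

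LET-418, the essential Mi-2 remodeler of NuRD and MEC, has been linked to the recruitment of HPL-2. Its transcript was at 86.7 and 54.1 CPM in the N2 libraries. In the mutant it was at 91.3, 44.4 and 107 CPM, so that mutant replicate 2 lay below both N2 libraries and the other two above both. The log2 fold change was 0.20 (standard error 0.39, 95% interval -0.67 to 1.07), with an adjusted p of 0.686 from edgeR. Its sign turned under upper quartile scaling, under a replicate block, and when N2 replicate 2 or mutant replicate 3 was left out.

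HDA-1 is the main class I deacetylase of the animal and is shared by NuRD, MEC and other corepressors. *hda-1* was at 69.9 and 99.9 CPM in N2 and at 102, 48.7 and 127 CPM in the mutant. The mutant libraries thus lay on both sides of N2. The log2 fold change of 0.13 (standard error 0.39, 95% interval -0.74 to 1.00) had an adjusted p of 0.804 from edgeR, and its sign also depended on the scaling and on single libraries.

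MEP-1 was first known for the switch from sperm to oocytes in the hermaphrodite germ line, where it acts with the MOG proteins. The N2 libraries gave nearly the same level for *mep-1*, 91.2 and 92.0 CPM. The mutant libraries gave 85.7, 47.8 and 98.3 CPM, on both sides of N2. The log2 fold change was -0.25 (standard error 0.33, 95% interval -0.97 to 0.48), with an adjusted p of 0.547 from edgeR, and it stayed below 0 in all 15 alternative fits, at -0.60 to -0.02. The intervals of these 3 genes hold both a rise and a fall. Differences within those bounds are not excluded by 3 and 2 libraries.

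Mutant replicate 2 stood apart from the other mutant libraries for the 5 genes as a whole. Its level was 0.425 times the mean of replicates 1 and 3 for *hda-1*, 0.447 times for *let-418*, 0.483 times for *chd-3*, 0.519 times for *mep-1* and 0.556 times for *lin-40*. Over the 10912 tested genes with a mean of at least 5 CPM the median of this ratio was 0.919, and 14.1% of them were at or below the ratio of *lin-40*. The summed level of 18 oocyte and eggshell markers was lower still in that library, at 0.328 times. The sum of 12 markers of mitotic and meiotic germ cells was 0.507 times, and that of 8 body wall muscle markers 1.14 times. Single genes dominate the last 2 sums. In mutant replicates 1, 2 and 3, *cgh-1* was at 1039, 314 and 1431 CPM, and *pat-10* was at 2170, 3136 and 2026 CPM. Other genes of these 2 lists went the other way, such as *syp-3* (31.2, 64.6 and 39.8 CPM) and *myo-3* (50.6, 24.8 and 55.9 CPM). What part the germ line content of the library has in the low values was not tested. Without mutant replicate 2, *chd-3* had a log2 fold change of -1.05 and *lin-40* one of -0.74, and both were still called.

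Among the N2 libraries the 5 genes did not move together. Replicate 2 had 0.624 times the level of replicate 1 for *let-418* and 0.753 times for *chd-3*, but 1.01 times for *mep-1*, 1.183 times for *lin-40* and 1.43 times for *hda-1*.

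The counts of the 5 genes relative to each other are free of any scaling between libraries. As a share of the summed counts of the 5 genes, *chd-3* made up 10.9% and 8.25% in N2 and 4.95%, 4.79% and 4.45% in the mutant. *lin-40* made up 16.1% and 19.1% in N2 and 10.4%, 12.5% and 10.8% in the mutant. Both shares were smaller in every mutant library, replicate 2 included. The share of *mep-1* stayed between 25.1% and 28.1% in all 5 libraries. That of *let-418* was 25.5% and 15.97% in N2 and 26.1% to 27.7% in the mutant, and that of *hda-1* was 20.6% and 29.5% in N2 and 28.6% to 32.4% in the mutant.

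Within each library, 4 ratios of counts between related subunits were compared. For the Mi-2 pair, *let-418* had 2.34 and 1.94 times the counts of *chd-3* in N2, and 5.59, 5.44 and 6.14 times in the mutant. The mutant libraries thus agreed closely on a ratio that none of the N2 libraries approached. The difference was 2.68-fold (1.42 on the log2 scale), beside an SD of 0.19 in the 2 N2 libraries and 0.09 in the 3 mutant libraries. For the MTA pair, *lin-40* had 0.892 and 1.64 times the counts of its paralog *egl-27* in N2 and 0.354, 0.340 and 0.372 times in the mutant. This ratio was 3.40-fold lower in the mutant (-1.77 on the log2 scale, SD 0.62 in N2 and 0.07 in the mutant). For the class I deacetylases, *hda-1* had 3.28 and 3.96 times the counts of *hda-3* in N2 and 1.68, 1.05 and 1.68 times in the mutant, 2.51-fold lower. Each of these 3 ratios differed between the strains without overlap. Single genes did so for 72.0% of all genes tested, and the share over all pairs of genes was not worked out. An exact two-sided permutation test gave p = 0.2 for each, the smallest that the 10 orderings of 3 and 2 libraries allow, and 0.267 after Benjamini-Hochberg adjustment over the 4 ratios, so that the design cannot pass a threshold of 0.05. The ratio of *mep-1* to *let-418* was 1.05 and 1.70 in N2 and 0.939, 1.08 and 0.918 in the mutant, with overlap (exact p = 0.4).

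**Figure D2:**
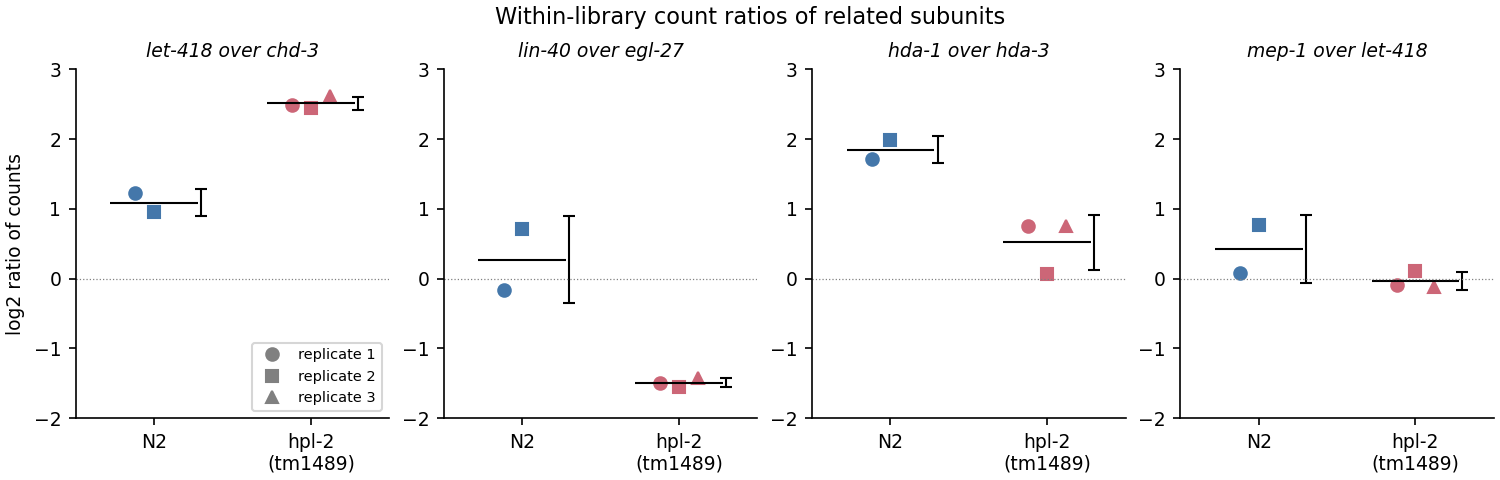
Log2 ratio of the counts of 2 genes in the same library (y axis), for N2 (blue) and *hpl-2*(*tm1489*) (red). Black lines are group means and bars are SDs. The 3 mutant libraries lie together for *let-418* over *chd-3* and for *lin-40* over *egl-27*, away from both N2 libraries, while *mep-1* over *let-418* overlaps.

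The other 7 NuRD genes moved in the opposite direction from *chd-3* and *lin-40*. All of *egl-27*, *lin-53*, *rba-1*, *dcp-66*, *hda-2*, *hda-3* and *mbd-2* were called higher in *hpl-2*(*tm1489*), against 33.9% of all genes tested, with a median log2 fold change of 1.07 and a range of 0.79 to 2.13. *hda-2*, a class I deacetylase gene, had 921 and 460 counts in N2 and 5363, 4420 and 4609 in the mutant, the largest change of the list (2.13, standard error 0.31, adjusted p 0.000404 from edgeR). *rba-1*, for one of the histone-binding WD repeat proteins, rose by 1.74 (standard error 0.27). Its partner gene *lin-53* rose by 0.91 (standard error 0.34). *hda-3* rose by 1.39, *mbd-2*, for a protein of the methyl-CpG-binding domain family, by 1.07, *egl-27*, the second MTA gene, by 0.85, and *dcp-66*, for the p66 subunit, by 0.79. The strains were apart for 6 of the 7 (all but *dcp-66*), against 39.0% of all tested genes apart in that direction. The adjusted p of these 7 genes was 0.0865 or smaller in edgeR. All 7 fold changes stayed above 0 in the 15 alternative fits, whereas the number called fell to 4 with upper quartile scaling, with the replicate block, without N2 replicate 2, and without mutant replicate 1 or 3.

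Counted together, the 5 genes had 1.44 and 1.60 times the counts of the other 7 in N2. In the mutant they had 0.639, 0.450 and 0.636 times, so that the order of the sums was reversed in each mutant library. These sums are dominated by the genes with the most counts and are not corrected for length.

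**Figure D3:**
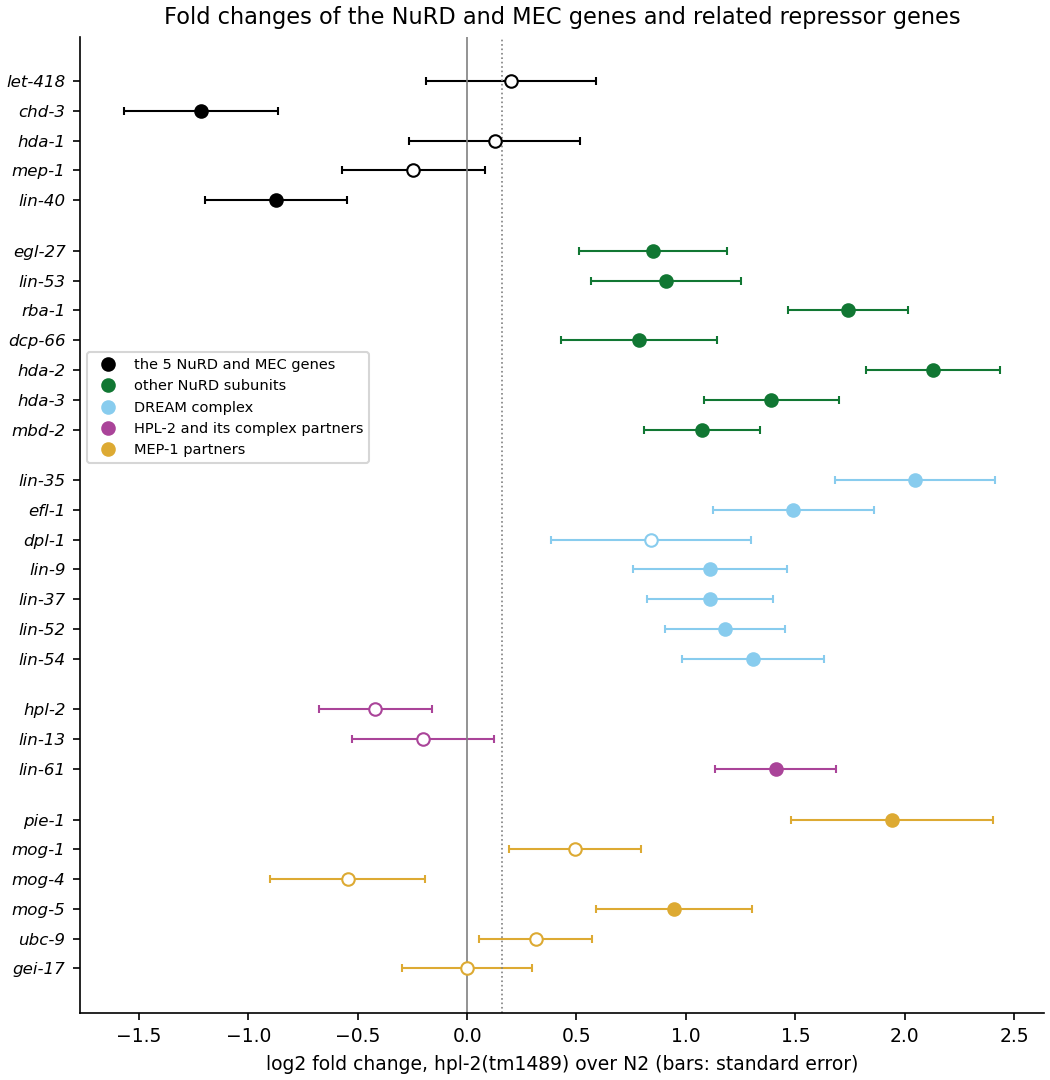
Log2 fold change between *hpl-2*(*tm1489*) and N2 (x axis) with its standard error (bars) for the 5 genes and 4 lists of related genes. Filled points passed an adjusted p under 0.1 in edgeR's test, and the dotted line is the median of all genes tested, 0.16. *chd-3* and *lin-40* are the filled points left of 0, and all 7 other NuRD subunits are filled points to the right.

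Other class B synMuv repressors, which act beside NuRD and MEC, differed by list. Of the 7 DREAM complex genes, 6 were called higher, against 33.9% of all genes tested, with a median log2 fold change of 1.179, and *dpl-1*, for the DP partner of E2F, was at 0.84 (adjusted p 0.145 from edgeR). *lin-35*, the retinoblastoma homolog, had 2092 and 792 counts in N2 and 10198, 7377 and 9846 in the mutant, a log2 fold change of 2.05 (standard error 0.36). The number called in this list was 4 with the replicate block. Of 5 further class B synMuv genes 2 were called higher, with a median of -0.07. *met-2*, for a histone H3 lysine 9 methyltransferase, was called at 1.38 and *lin-15B* at 1.13 (standard error 0.49, adjusted p 0.0743 from edgeR). For *lin-15B* the strains overlapped, as mutant replicate 2 was at 11.8 CPM and N2 at 13.9 and 14.3 CPM. *lin-36* (-0.07), *lin-65* (-0.19) and *tam-1* (-0.53) were not called. Without any one library other than mutant replicate 2, the number called in this list was 1. HPL-2 is bound by the zinc finger protein LIN-13 and the MBT repeat protein LIN-61. *lin-13* was at -0.20 (adjusted p 0.625) and *lin-61* was called higher at 1.41 (adjusted p 0.00219), both from edgeR. The *hpl-2* gene had 3130 and 2079 counts in N2 and 3409, 3452 and 2733 in the mutant (-0.42, adjusted p 0.192 from edgeR), and 1 count per gene does not show whether the reads lie in the deleted part.

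Of 8 genes listed as partners of MEP-1, 6 were tested and 2 were called higher, a share close to the 33.9% of all genes. The number called higher was 1 with the replicate block, without mutant replicate 3, and with upper quartile scaling, where 1 gene was also called lower. It was 3 with the span trend removed and 4 with library size alone. *pie-1*, for the maternal germ line factor that binds MEP-1 in the embryo and blocks its action, had 635 and 617 counts in N2 and 5213, 1983 and 4853 in the mutant (1.94, standard error 0.46). *mog-5*, for an RNA helicase of the sperm-to-oocyte switch, rose by 0.95, whereas *mog-1* was at 0.49 and *mog-4* at -0.54 and neither passed the test. The SUMO pathway genes *ubc-9* (0.31) and *gei-17* (0.00) did not pass it either. *mog-6* was not matched to a name in the table, and *smo-1* had too few counts to be tested.

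Of 8 genes listed as held down in somatic cells by MEC or NuRD, 3 were called higher and 2 lower, close to the shares over all genes. The P granule helicase genes *glh-2* (1.45) and *glh-3* (1.24) and the EGF gene *lin-3* (1.75) were higher, and *glh-1* (-0.67) and the Notch ligand gene *lag-2* (-2.32) were lower. With the replicate block 1 gene was called higher and 1 lower. The number called lower was also 1 with library size alone and at an adjusted p under 0.05. With any 1 of the 5 libraries left out, the median log2 fold change of the list ran from -0.43 to 0.33. *lag-2* was rare, with 49 and 38 counts in N2 and 17, 4 and 21 in the mutant. *pgl-1*, *pgl-3* and *glh-4* were at -0.28, 0.11 and 0.01 and passed no test. Most of these genes are also transcribed in the germ line, and the counts do not separate the tissues.

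Markers of several tissues differed between the strains. Over all genes tested, 33.9% were called higher and 27.6% lower. Of the 18 oocyte and eggshell genes 17 were called higher, with summed levels of 1035 and 1515 CPM in N2 and 2063 to 7226 CPM in the mutant. Markers of mitotic and meiotic germ cells had 6 of 12 called higher and 1 lower, with sums of 929 and 1217 CPM in N2 and 992 to 2225 CPM in the mutant. Of the 18 molting cycle genes 17 were called lower, and of the 8 body wall muscle genes 7, from 11119 and 16374 CPM to 4321 to 4930 CPM. Epidermis had 5 of 8 genes lower, intestine 6 of 7 and vitellogenin 6 of 6. The count for intestine was 2 without N2 replicate 2 and 1 with the replicate block, with all 7 fold changes still below 0. Sperm genes had 7 of 12 lower and 1 higher, and neuronal genes 4 of 10 lower and 1 higher. For the neuronal genes and for those of mitotic and meiotic germ cells, the share called was no larger than the 61.5% over all genes tested. All defining muscle, intestine, neuron and germ line markers matched in the table were present in every library. Of the 12 early embryo genes 2 had enough counts to be tested, and both were called higher. *vet-2* had 16 and 2 counts in N2 and 425, 386 and 427 in the mutant. *end-3* had 0 and 8 counts in N2 and 53, 66 and 37 in the mutant. Both passed the filter through their mutant counts, so that these 2 calls are not a result about the list. With no filter 11 of the 12 were tested, 7 with a fold change above 0 and 4 below, and 2 were called higher. Another 3 of the 12 were at most at 3 counts in each of the 5 libraries. Their part in the changes of *chd-3*, *lin-40* and the other NuRD genes was not tested.

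**Figure D4:**
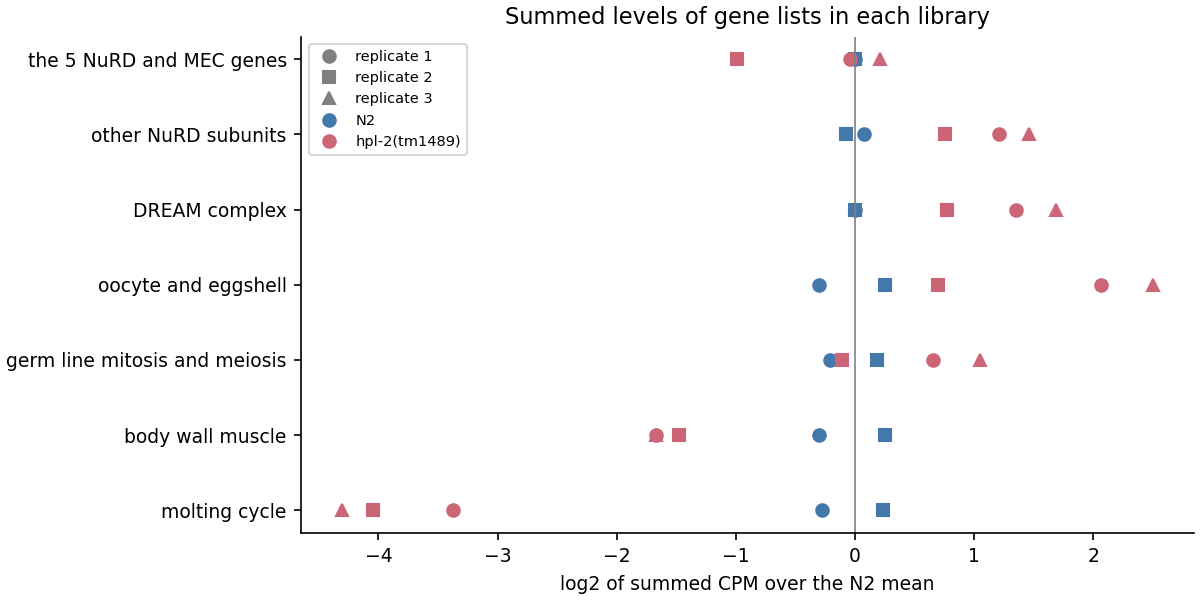
Summed CPM of each gene list in each library, as the log2 ratio to the mean of the 2 N2 libraries (x axis), for N2 (blue) and *hpl-2*(*tm1489*) (red). The sum of the 5 genes was 340 and 339 CPM in N2 and 330, 170 and 392 CPM in the mutant, with replicate 2 (square) far to the left, while the other NuRD subunits and the DREAM genes lie to the right of N2 in every mutant library.

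The genes with profiles most like each of the 5 were sought among 4700 other named genes with a mean of at least 5 CPM, as those with the smallest root mean square difference of centered log2 CPM over the 5 libraries. For *lin-40* these were *egl-26* (0.03), *swan-2* (0.05) and *cgp-1* (0.05). For *mep-1* they were *cpr-4*, for a cathepsin B protease (0.03), *sax-7*, for an L1 family adhesion protein (0.04), and *utx-1*, for a histone H3 lysine 27 demethylase (0.05). *hda-1* was nearest to *mdt-26*, for a Mediator subunit (0.04), *bub-3*, for a spindle checkpoint protein (0.05), and *lst-4* (0.05). *chd-3* was nearest to *tag-347* (0.11), *gld-2*, for a cytoplasmic poly(A) polymerase (0.12), and *wnk-1*, for a WNK kinase (0.13). *let-418* was nearest to *spr-4*, for a zinc finger protein (0.11), *met-1*, for a histone H3 lysine 36 methyltransferase (0.14), and the netrin receptor gene *unc-40* (0.15). Among the 5 genes, the closest profiles were those of *hda-1* and *mep-1* (0.26) and of *chd-3* and *lin-40* (0.29), and the most distant were those of *chd-3* and *hda-1* (0.71).

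**Figure D5:**
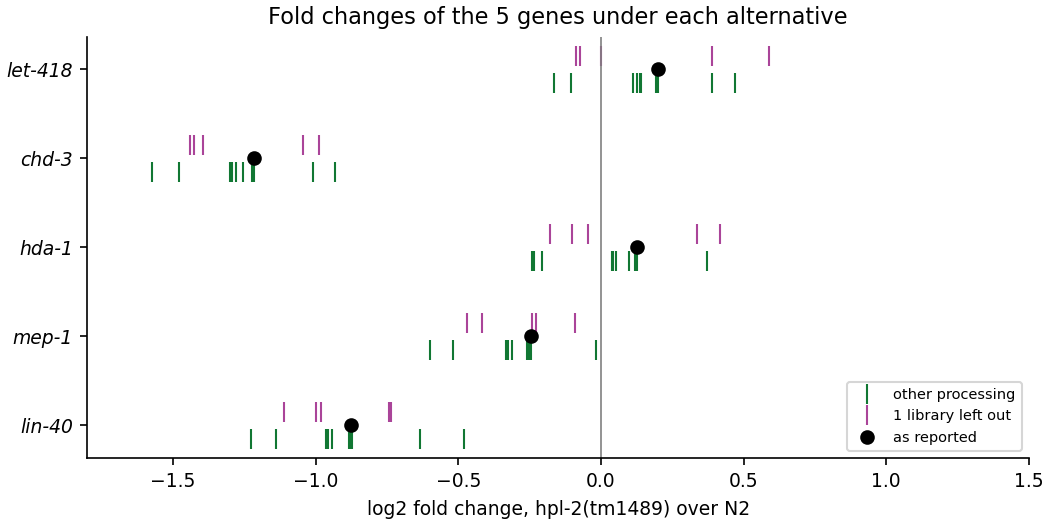
Log2 fold change of each gene (x axis) as reported (black point), under other processing (green ticks) and with 1 library left out (purple ticks). *chd-3* and *lin-40* stay left of 0 throughout, *mep-1* stays left of 0 down to -0.02, and *let-418* and *hda-1* lie on both sides.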

How the data were processed

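The study sequenced strand-specific, single-end poly(A) libraries, of which 3 *hpl-2*(*tm1489*) and 2 N2 libraries are used here. After trimming, the authors used TopHat2 2.0.14 for alignment to WS220 and Rsubread to count uniquely mapped reads per gene, and they deposited these raw counts without normalization. All 5 columns were matched to samples by name. Totals were 80724052 and 66490671 counts in N2 and 95252804 to 114718047 in the mutant. Replicates differed by more than sampling noise (chi-square over degrees of freedom of 97.2 or more). Genes were filtered with filterByExpr (minimum count 10), scaled with TMM, and tested with the robust quasi-likelihood test of edgeR 4.0.16 in R 4.3.3, genotype alone. Adjustment was by Benjamini-Hochberg over all tested genes, with calls at 0.1, the study's threshold. Standard errors came from the fold change and the F statistic. The procedure was tested on simulated data.

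The 5 genes and the gene lists were chosen with earlier results of these data known. The genes named are the 5, the genes of the lists, *pmp-3*, *hpl-2* and the 3 nearest profiles of each gene. *nrsn-1* was added after its overlap was seen. Older names were matched through RefSeq (WBcel235), which also gave gene spans. Alternatives were DESeq2 1.42.0, other scalings (including to *pmp-3*, the reference gene of the study), other filters, an adjusted p under 0.05, a replicate block, removal of a span trend and each library left out. Sequences and levels per length are not given, since no sequence or transcript length was used here.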

Additional observations from a re-analysis of the deposited data

How the results depend on the processing

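The lower call of *chd-3* held in the 15 alternatives run, and *let-418*, *hda-1* and *mep-1* were called in none of them. The call of *lin-40* was lost at -0.48 when the span trend was removed, which left 1 of the 5 genes called. Leaving out 1 library gave 1 to 2 calls, with log2 fold changes of -1.11 to -0.74 for *lin-40*, -1.44 to -0.99 for *chd-3*, -0.47 to -0.092 for *mep-1*, -0.087 to 0.59 for *let-418* and -0.18 to 0.42 for *hda-1*. Fits without an N2 library assume that the lone control varies like the other group. The sign of *let-418* turned to -0.16 with upper quartile scaling. That of *hda-1* turned to -0.23 with the same scaling and to -0.21 without the span trend. The cause was not tested, and none of these values was past the threshold.

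The number of genes called stayed within 1.5 times its value, from 7879 to 11254. The median log2 fold change of all genes was 0.16 with TMM, -0.16 with upper quartile scaling and 0.41 with library size alone, and the share of calls that were lower was 44.9%, 57.5% and 36.02%. The ratios within a library kept their sign in all alternatives run.

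Replicate numbers 1 and 2 occur in both strains, and the deviations of same-numbered libraries correlated at -0.168 and -0.257 across genes. With 2 N2 libraries their deviations mirror each other, so these values cannot settle whether the numbers pair the libraries. With the replicate block, in which mutant replicate 3 carries no information on genotype, *let-418* was at -0.10 and *hda-1* at -0.24, *chd-3* and *lin-40* were called at -1.48 and -1.14, and 7879 genes were called in all.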

Other observations

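Of 7 tested genes for deacetylases and remodelers outside NuRD, 3 were called lower, against 27.6% of all genes tested. *hda-4*, for a class II deacetylase, had 3446 and 2871 counts in N2 and 1914, 1031 and 1438 in *hpl-2*(*tm1489*), and fell by 1.86 on the log2 scale (standard error 0.31), and *hda-5* was called lower at -0.86, whereas *hda-6* was at 0.42 without a call. Among remodeling ATPase genes, *ssl-1*, of the SWR1 class, was called lower at -1.10, and *isw-1* (0.67), *btf-1* (-0.40) and *chd-1* (1.14) were not called. When the span trend was removed, 0 of these 4 genes were called lower and 2 were called higher. All 4 fold changes, that of *ssl-1* included, were then above 0. Without N2 replicate 2 the call of *ssl-1* was lost, and 1 of the deacetylase genes was called lower. *chd-1* had 2461 counts in N2 replicate 1, 326 in N2 replicate 2, and 5322, 3553 and 4455 in the mutant, so that the N2 libraries differed from each other more than N2 replicate 1 did from the mutant.

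Of 6 tested genes of the SIN3 and CoREST corepressors, which also hold class I deacetylases, 3 were called higher, against 33.9% of all genes tested. The number was 2 with upper quartile scaling, with the replicate block, at an adjusted p under 0.05, and without mutant replicate 1 or 3. With library size alone or without mutant replicate 2 it was 4. With any 1 of the 5 libraries left out, the median log2 fold change of the list ran from 0.52 to 1.13. *spr-1*, the CoREST gene, had 1300 and 484 counts in N2 and 7286, 9698 and 6305 in the mutant (2.49, standard error 0.36), *sin-3* was at 1.60 and *rcor-1* at 0.98. The N2 libraries differed for *sin-3*, at 35.6 and 11.0 CPM, and the strains overlapped for *rcor-1*.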
